A study of Capra hircus with 3 samples.

Results

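SHH, the gene of the secreted ligand Sonic hedgehog, and PTCH1, the gene of its receptor Patched 1, were followed across the cells of fetal goat skin. They are 2 of the 16739 genes of the deposited table and were taken by name. In Hedgehog signalling, Patched 1 holds the membrane protein Smoothened silent until a Hedgehog ligand binds, after which GLI transcription factors switch on target genes. PTCH1 is itself a target, as are HHIP and GLI1, so its transcript level is commonly read as a mark of cells that receive the signal. In skin, follicle epithelium is known to secrete Sonic hedgehog, and the dermal condensate and papilla beneath it, as well as the epithelium itself, are known to respond.

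The samples were dorsal skin taken from fetuses of the Northern Shaanxi White Cashmere Goat (Capra hircus) at 60, 90 and 120 days of gestation, named E60, E90 and E120, all unmanipulated and with no allele or agent given. Each stage was 1 droplet library of 3′ transcript ends (10x Genomics), in which suspensions of at least 2 fetuses were mixed before barcoding, so there was no replicate and no test. E60 and E90 were whole skin loosened with collagenase IV, whereas E120 was follicles picked by forceps and dissociated further with TrypLE. Wherever E120 is compared, stage and tissue preparation cannot be told apart. The libraries held 6849, 6931 and 6896 cells at E60, E90 and E120, with median depths of 8579, 3714 and 13064 unique molecular identifiers (UMIs, counted transcripts) per cell, and 19, 22 and 23 of their barcodes also occurred in another library.

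Levels are in CPM, a gene's UMIs scaled to a total of 1000000 UMIs over the cells summed. Intervals in parentheses are exact 95% intervals, Poisson for levels and Clopper-Pearson for shares of cells, and cover counting error only. Shares of cells are also given after each cell was thinned to 2000 UMIs, since depth differed between libraries. The 32 clusters were built without SHH, PTCH1 and the other Hedgehog genes, and 27 of them were named from marker genes. Cells of different libraries seldom mixed: in 30 of the 32 clusters over 90% of cells had 1 library as their source, and library and cell type are then not separable.

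SHH was not seen at E60 and was present at E90 and E120. At E60 there were 0 SHH UMIs in 6849 cells, which by the limit of 3 counts allows up to 0.0438% of cells with a UMI and by the exact interval up to 0.0538%. At E90 there were 559 UMIs in 419 cells, a level of 18.5 CPM (17.0 to 20.1). At E120 there were 2858 UMIs in 621 cells, a level of 30.6 CPM (29.5 to 31.7). Against a floor of 3 counts over the E60 library, the E90 level was at least 400.3-fold higher and the E120 level at least 663-fold higher. The E60 library held 2 cells in epithelial-like clusters, and its dermal-like cells carried a summed 50.5 CPM of the 33 epithelial markers, 18 of which were at 0. An E60 level of SHH in epithelium was therefore not measurable here.

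The share of cells with an SHH UMI was 6.05% at E90 and 9.01% at E120. At equal depth these shares were 3.30% and 4.09%. The highest count in a single cell was 7 UMIs at E90 and 46 UMIs at E120.

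PTCH1 was found at every stage and was highest at E90. It had 1817 UMIs at E60, a level of 27.9 CPM (26.7 to 29.2), 8840 UMIs at E90, a level of 292 CPM (286 to 298), and 5251 UMIs at E120, a level of 56.2 CPM (54.7 to 57.8). A PTCH1 UMI was in 18.9% of E60 cells, 65.6% of E90 cells and 40.8% of E120 cells. After thinning the shares were 5.27%, 41.9% and 11.4%, in the same order.

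**Figure D1:**
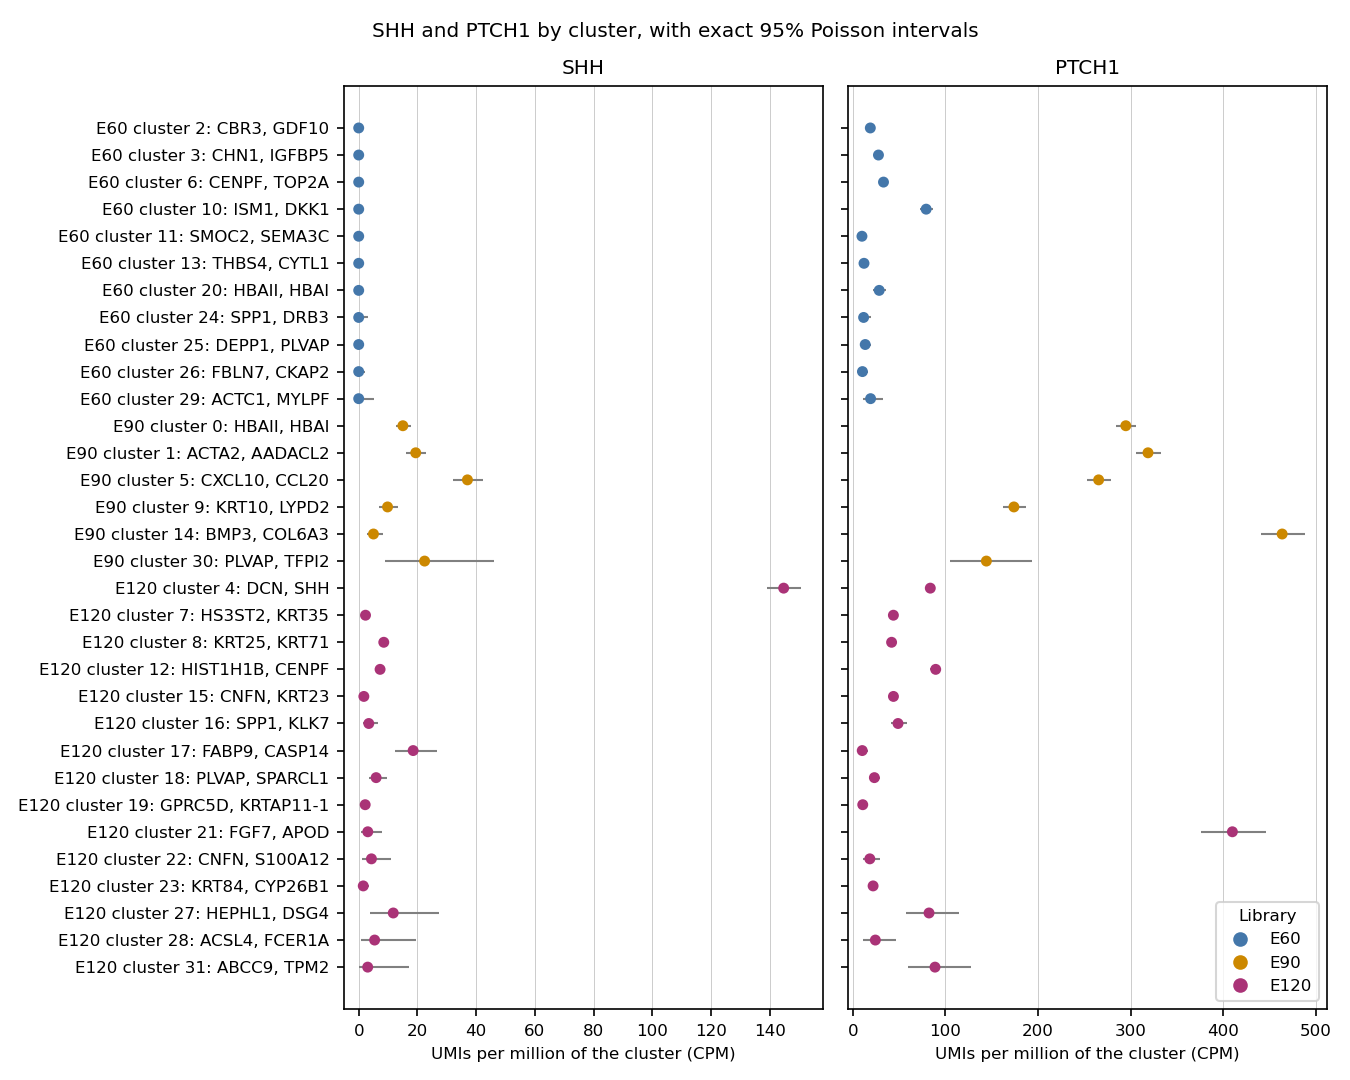
SHH (left) and PTCH1 (right) in CPM of each cluster, for clusters with at least 50 cells of a library, each labelled with its library, its number and its 2 leading genes. Points are levels, lines are exact 95% Poisson intervals, and colours are libraries. SHH stands out in E120 cluster 4 at 145 CPM, and PTCH1 in E90 cluster 14 and E120 cluster 21 at 464 and 410 CPM.

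At E120, SHH lay mostly in 1 cluster. Cluster 4, with 1382 cells, held 2475 of the 2858 UMIs, or 86.6% (85.3 to 87.8). Its level was 145 CPM (139 to 151), and all other E120 cells together had 5.02 CPM, a ratio of 28.8 (25.9 to 32.2). An SHH UMI was in 27.7% of its cells, or 15.6% at equal depth, against 1.67% of 359 endothelial-like cells, a type that should lack SHH, or 0.836% at equal depth. Median depths were 12040 UMIs in cluster 4 and 6392 UMIs in the endothelial-like cluster.

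The leading genes of that cluster were DCN, SHH, MT3, CXCL14, MT2A, JAG2, PDGFA, DPP4, CCL20 and FERMT1. The cluster was left unnamed because DCN, which encodes the matrix proteoglycan decorin and was on the list of dermal markers, led it at 1612 CPM. Its closest class was epithelial, with the desmosome gene DSP at 186 CPM and the adhesion gene EPCAM at 38.9 CPM. The basal keratins KRT14 and KRT5 were at 68.3 and 42.8 CPM. Other epithelial markers were lower, with SFN, PERP and CDH1 at 14.7, 4.38 and 3.62 CPM. KRT14 and DSP were 56.3 and 23.2 CPM in the dermal-like cluster 21, and 12892 and 1212 CPM in the epithelial-like cluster 16. The collagen gene COL1A1 and the proteoglycan gene LUM, which defined dermal cells, were near 0 in cluster 4, at 0.643 and 0.292 CPM. PDGFA is the gene of a growth factor that follicle epithelium is known to send to dermis, and JAG2 is the gene of a Notch ligand.

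Within cluster 4 the transcript was concentrated further. Across the E120 library, 177 cells with at least 5 SHH UMIs held 74.7% of the SHH UMIs, and 166 of these cells were in cluster 4. At least 10 UMIs were found in 88 cells, 85 of them in cluster 4, which held 53.5% of the UMIs. The doublet caller marked 4 of the 177 cells and 0 of the 88 cells. At E120 it marked only 30.7% of simulated doublets, so doublets among these cells could go unmarked.

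In a finer clustering at resolution 2, SHH was highest in a piece of 753 cells, led by DCN and SHH. It was followed by a piece of 597 cells led by the cell cycle genes TOP2A and CENPF. The first then held 45.6% of the SHH UMIs of the library. SHH was 164 CPM (155 to 173) in it and 126 CPM (119 to 134) in the cycling piece. An unnamed piece of 179 cells led by HEPHL1, DSG4 and mitochondrial genes had 65.5 CPM (48.3 to 86.9) from 48 UMIs, with up to 16 in a cell. In the clusters made from E120 alone, a cluster of 444 cells led by SHH itself reached 269 CPM (254 to 284), with an SHH UMI in 42.8% of its cells.

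Elsewhere at E120, SHH was at most 18.5 CPM. That level (12.4 to 26.6) was in cluster 17, with 379 cells led by FABP9 and CASP14 and named hair shaft or inner root sheath. Its interval lies above that of the endothelial-like cluster 18 (3.39 to 9.63), but 1 cell held 10 of its 29 UMIs. At equal depth the shares of cells with an SHH UMI were 3.17% (1.65 to 5.47) and 0.836% (0.173 to 2.42), with overlapping intervals. The unnamed cluster 27 had 11.8 CPM (3.82 to 27.5) from 5 UMIs. SHH was 8.54 CPM in cluster 8, led by the inner root sheath keratins KRT25 and KRT71, 7.28 CPM in the cycling epithelial-like cluster 12, and 2.32 CPM in cluster 7, led by HS3ST2 and the hair keratin KRT35. The dermal-like cluster 21 had 4 UMIs, or 3.09 CPM (0.841 to 7.90), and the endothelial-like cluster 18 had 5.93 CPM from 16 UMIs. Levels of that size in cells that should lack SHH were thus as high as in several epithelial-like clusters.

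At E90, cluster 5, with 1254 cells, was highest in SHH with 218 of 559 UMIs, or 39.0% (34.9 to 43.2), and a level of 37.0 CPM (32.3 to 42.3). It was led by CXCL10, CCL20, SEMA3E, ATP1B1, FGF20 and PDGFA. It was named epithelial-like, follicle germ or placode, the early thickening that becomes a follicle. An SHH UMI was in 10.4% of its cells, or 5.74% at equal depth (4.52 to 7.18). The share of SHH UMIs in the highest cluster depended on the clustering at both stages. At resolution 0.5 it was 85.5% at E90 and 87.1% at E120, and with a filter on cells of at least 1000 genes and at most 10% mitochondrial UMIs it was 81.4% and 46.8%. It thus gives no order of spread between the stages.

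The other E90 clusters had SHH at 5.02 to 22.4 CPM. The unnamed clusters 0 and 1, led by haemoglobin and mitochondrial genes and by genes that include ACTA2, had 15.03 CPM (12.7 to 17.7) and 19.4 CPM (16.2 to 23.1), and together they held 4101 cells. The suprabasal epidermis-like cluster 9 had 9.82 CPM, and the dermal-like cluster 14 had 5.02 CPM (2.87 to 8.15). The endothelial-like cluster 30, with 76 cells, had 7 UMIs and 22.4 CPM (9.02 to 46.2), with a UMI in 6.58% of its cells, or 2.63% at equal depth. At equal depth its interval (0.320 to 9.18) covers the shares of clusters 0, 1, 5 and 9, which were 2.95%, 3.57%, 5.74% and 1.77%. In the dermal-like cluster 14 the share was 1.13% (0.417 to 2.45), below the intervals of clusters 1 (2.76 to 4.54) and 5 and overlapping those of clusters 0 and 9. How much of the SHH in clusters 0, 1 and 9 was free RNA was not tested. Median depths were 3604 UMIs in cluster 30 and 3875 UMIs in cluster 5.

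Clustering of E90 alone singled out a group of 54 cells led by CXCL10, FGF20, CCL20, TNFRSF11B, SMOC2, ELOVL6 and SHH. Its SHH level was 215 CPM (165 to 275) from 63 UMIs, in 64.8% of its cells, or 35.2% at equal depth (22.7 to 49.4). No other E90 cluster of that analysis was above 29.2 CPM. The group carried EPCAM at 181 CPM and KRT14 at 293 CPM together with COL1A1 at 679 CPM and DCN at 1695 CPM. Markers of both layers were thus present, and their part in the result was not tested. Other E90 clusters carried both too, with KRT14 and COL1A1 at 688 and 599 CPM in cluster 0 and 324 and 410 CPM in the endothelial-like cluster 30. The group of 54 cells stayed unnamed because markers of another class led it, and its closest class was melanocyte, with 4 markers found.

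**Figure D2:**
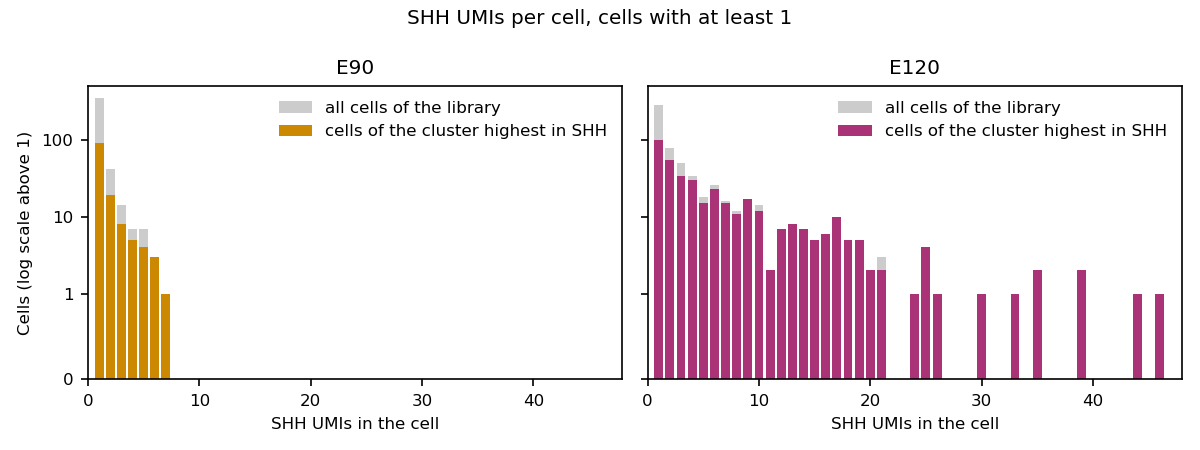
Number of cells (vertical axis, log scale above 1) by the number of SHH UMIs in the cell, for cells with at least 1, at E90 (left) and E120 (right). Grey bars are all cells of the library and coloured bars are cells of the cluster highest in SHH, which at E120 reached 46 UMIs in a cell, against 7 at E90.

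The genes that went with SHH in single cells were ranked within each class by the ratio of levels, with 10 CPM added, between cells with an SHH UMI and the other cells of that class. Among E90 epithelial-like cells, 168 carried SHH, and the leading genes were CXCL10, FGF20, CCL20, TNFRSF11B and FGF19. FGF20, a growth factor known from follicle placodes, was 108 CPM in the cells with SHH and 4.63 CPM in the 1992 others. CXCL10, an interferon-inducible chemokine, was 1208 CPM against 93.7 CPM.

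Among the E120 cells of unnamed clusters, 392 carried SHH, and the leading genes were CCL20, PTHLH, VCAN, DCN and NFKBIA. CCL20, a chemokine, was 314 CPM in cells with SHH and 5.28 CPM in the 1306 others. PTHLH, the gene of parathyroid hormone-related protein, was 86.1 CPM against 5.21 CPM. CCL20 was thus among the leaders in both of these classes. It was 618 CPM in the 177 E120 cells with at least 5 SHH UMIs against 13.9 CPM in the 6275 cells with none. That cut was added after the data were seen. CCL20 did not lead in the other classes. The 213 E120 epithelial-like cells with SHH were led by DCN, HBAI, COTL1, NR4A2 and HBAII. The 235 such cells of unnamed E90 clusters were led by HIST1H1E, CENPF, HINT2, KRT8 and VARS, with HIST1H1E at 61.6 CPM against 35.1 CPM.

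Over the 32 clusters of at least 50 cells, the genes whose log2 levels followed SHH most closely were FERMT1, an integrin activator (Pearson's r of 0.858), THEM5, LHX2, a transcription factor of follicle epithelium (r of 0.830), PLCH2 and PGLYRP1. This ranking ran over 6285 genes. The clusters share their libraries, depth and preparation, so these values describe the pattern and carry no p.

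PTCH1 was highest in dermal-like cells at E90 and E120. At E90, cluster 14, with 529 cells led by BMP3, COL6A3, SPON1 and FN1, had 464 CPM (440 to 488), with a UMI in 80.3% of cells, or 52.0% at equal depth. At E120, cluster 21, with 206 cells led by FGF7, APOD, RSPO3 and RSPO2 and named dermal condensate or papilla, had 410 CPM (376 to 446), with a UMI in 81.6% of cells, or 46.1% at equal depth. These 2 intervals overlap. FGF7 and the R-spondins RSPO2 and RSPO3 are signals that the papilla is known to send to follicle epithelium.

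Within E90, every cluster had PTCH1 above 140 CPM. Clusters 1, 0 and 5 had 319, 295 and 265 CPM, and cluster 9 had 174 CPM (162 to 187). The endothelial-like cluster 30 had 144 CPM (105 to 193), with a UMI in 42.1% of cells, and 34 myeloid-like cells had 225 CPM (163 to 302), with a UMI in 70.6%. At equal depth the shares were 25.0% and 32.4%, against 35.3% in all epithelial-like cells and 51.9% (47.5 to 56.2) in all dermal-like cells. The dermal-like share was above the endothelial-like and myeloid-like intervals (16.4 to 36.8 and 17.4 to 50.5, over all cells of each class) and the epithelial-like share was not, and the dermal-like and myeloid-like intervals overlap. By level, cluster 5 at 265 CPM (252 to 279) was above the endothelial-like cluster 30. How much of the PTCH1 in E90 epithelial-like cells was free RNA was not tested. Median depths were 5668, 3943, 3604 and 4204 UMIs in dermal-like, epithelial-like, endothelial-like and myeloid-like E90 cells.

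The same library carried epithelial markers in its dermal-like cells, at a summed 2026 CPM against 16208 CPM in epithelial-like cells, and dermal markers in its epithelial-like cells, at 2215 CPM against 10923 CPM. The part of these in the PTCH1 levels was not tested.

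PTCH1 was higher in the dermal-like layer at both stages. Dermal-like cells had 462 CPM at E90 and epithelial-like cells 227 CPM, a log2 ratio of 1.02, where log2 ratios are of CPM + 1. At E120 they had 407 and 44.5 CPM, a log2 ratio of 3.17. With unnamed clusters counted in their closest class the ratios were 0.75 and 2.95. The difference between the 2 ratios was not tested.

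Beside the papilla-like cells, PTCH1 at E120 was highest among the 32 clusters in clusters 12, 31, 4 and 27, whose intervals overlap. The cycling epithelial-like cluster 12, led by HIST1H1B, CENPF and CENPW, had 89.5 CPM (83.9 to 95.5), and the SHH-rich cluster 4 had 83.7 CPM (79.4 to 88.2). Clusters 7 and 8 had 43.9 and 41.9 CPM, cluster 19, led by the keratin-associated gene KRTAP11-1 and GPRC5D, had 10.8 CPM, and the endothelial-like cluster 18 had 23.3 CPM. The mural-like cluster 31, of 59 cells around vessels, had 88.8 CPM (59.5 to 128), and the unnamed cluster 27 had 82.3 CPM (57.4 to 115). Cluster 16, named basal epidermis or outer sheath, had 48.9 CPM (40.8 to 58.1). The finer clustering at resolution 2 set apart 137 cells named follicle germ or placode and led by CCN2 and SEMA3E. They had 145 CPM (114 to 181). There, 179 unnamed cells led by HEPHL1, DSG4 and mitochondrial genes had 120 CPM (96.4 to 148).

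At E60 PTCH1 was uneven within dermal-like cells. Cluster 10, with 780 cells led by ISM1, DKK1, CXCL14, C1QTNF7, F13A1 and BMP7, had 79.2 CPM (72.6 to 86.4) and held 28.3% of the PTCH1 UMIs of the library. The cycling cluster 6 had 33.2 CPM, cluster 3 had 27.7 CPM and cluster 2 had 19.0 CPM. The lowest were cluster 13 at 12.1 CPM, cluster 26, with 134 cells, at 10.5 CPM (6.09 to 16.7) and cluster 11, led by SMOC2 and SEMA3C, at 9.92 CPM (7.41 to 13.0), with overlapping intervals. The myeloid-like cluster 24 had 11.7 CPM and the endothelial-like cluster 25 had 13.5 CPM, and clusters 11, 13 and 26 were at that level. The mural-like cluster 20 had 28.5 CPM (22.1 to 36.3) and the skeletal muscle-like cluster 29 had 19.2 CPM (10.5 to 32.3). Clusters 2, 3 and 6 were thus also at the level of cells of other types, and only cluster 10 lay above all of these intervals. DKK1 is the gene of a secreted Wnt inhibitor, and BMP7 that of a bone morphogenetic protein. At equal depth a PTCH1 UMI was in 12.6% of the cells of cluster 10 and in 2.01% of those of cluster 11.

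The genes that followed PTCH1 most closely over the 32 clusters were ATP11B (r of 0.863), MTSS1L, SMARCAD1, NDNF and MORC3, again as a description without p. Of the Hedgehog list, the target GLI1 had an r of 0.801 and the target HHIP 0.704. The targets listed as less specific to the pathway were mixed. SOX9 had 0.732, SOX18 0.533, BCL2 0.299 and MYCN 0.290, and CCND1, FOXF1, FOXF2 and FOXC2 lay between -0.094 and 0.086. Among E60 dermal-like cells, those with a PTCH1 UMI were led by BMP7, CCL21, DKK1, F13A1 and CXCL14. BMP7 was 78.7 CPM in 1205 cells with PTCH1 and 23.1 CPM in 5070 without. At E90 the dermal-like leaders were DEPP1, SPARCL1, GAP43, SHISA3 and COL28A1, and at E120 they were ADM, MATK, DEPP1, CALB2 and SPINT1, where only 42 cells lacked PTCH1.

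A list of 36 genes of the pathway was used for the remaining comparisons, of which 31 were found in the table. The other ligands, IHH and DHH, were not found under their symbols and neither were DISP2, GSK3B and CSNK1A1. A gene was counted as 2-fold higher or lower when the log2 ratio of CPM + 1 passed 1 and the higher sum had at least 5 CPM. All genes of the table were treated the same way, and the share of them that passed is given as the background.

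Over whole libraries, SHH and PTCH1 were among 7 of 20 Hedgehog genes that were 2-fold higher at E90 than at E60 (background 24%), with HHIP, GLI1, MYCN, SOX9 and SOX18, and 0 were lower (background 7.45%). From E90 to E120, 1 of 19 was higher, MYCN (background 9.15%), and 13 were lower, PTCH1 among them (background 25.7%), with medians of -1.41 over the list and -0.30 over all genes. SHH, at 1.66 times its E90 level (1.51 to 1.82), was in neither count. From E60 to E120, 4 of 16 were higher, SHH, HHIP, MYCN and SOX9 (background 19.8%), and 5 were lower, DISP1, CDON, BOC, GLI2 and BCL2 (background 21.2%). Fewer cells of a type and less transcript per cell cannot be told apart in these sums.

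Between E60 and E90, PTCH1 in dermal-like cells was 28.9 CPM (27.5 to 30.3) and 462 CPM (438 to 486), a 16.0-fold difference (14.9 to 17.1) and a log2 ratio of 3.95. Of 20 Hedgehog genes that could be called, 12 were 2-fold higher at E90, against a background of 37.2% of all genes, and 0 were lower, against 5.76%. The median log2 ratio was 1.39 over the list and 0.56 over all genes. With scaling by the median of ratios the log2 ratio of PTCH1 was 3.10 and 4 of the list were lower, and with a pseudocount of 10 CPM 7 were higher. HHIP, whose protein binds and traps the ligand, was 1.20 CPM at E60 and 33.5 CPM at E90. GLI1 was 4.60 and 28.9 CPM, GLI2 24.7 and 57.7 CPM, and the co-receptor CDON 81.9 and 72.3 CPM. Epithelial markers summed to 50.5 CPM in the E60 and 2026 CPM in the E90 dermal-like cells, and their part in the differences was not tested.

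Between E90 and E120, PTCH1 in dermal-like cells went from 462 to 407 CPM (373 to 443), a log2 ratio of -0.18. Of 21 Hedgehog genes, 4 were 2-fold higher at E120, SCUBE2, SCUBE3, HHIP and GPR161, against a background of 11.3%, and 10 were lower, against 20.7%. HHIP was 33.5 CPM at E90 and 317 CPM at E120, SCUBE3 5.59 and 252 CPM, and SCUBE2 3.41 and 78.8 CPM. The SCUBE proteins are secreted and help to release the lipid-bearing ligand from the cells that make it. The co-receptors CDON and BOC were lower at E120, at 4.55 and 3.03 CPM against 72.3 and 15.2 CPM, as was GLI1 at 11.4 CPM against 28.9 CPM. With a pseudocount of 10 CPM 3 genes were lower. The comparisons with E60 and with E120 share the E90 cells, and the E120 cells were follicles only.

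Against E60, E120 dermal-like cells had PTCH1 14.1-fold higher (12.8 to 15.5). Of 20 genes, 8 were 2-fold higher (background 28.2%) and 3 lower, DISP1, CDON and BOC (background 9.3%). DISP1, which exports the ligand from the producing cell, was 20.4 CPM at E60 and 3.03 CPM at E120.

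**Figure D3:**
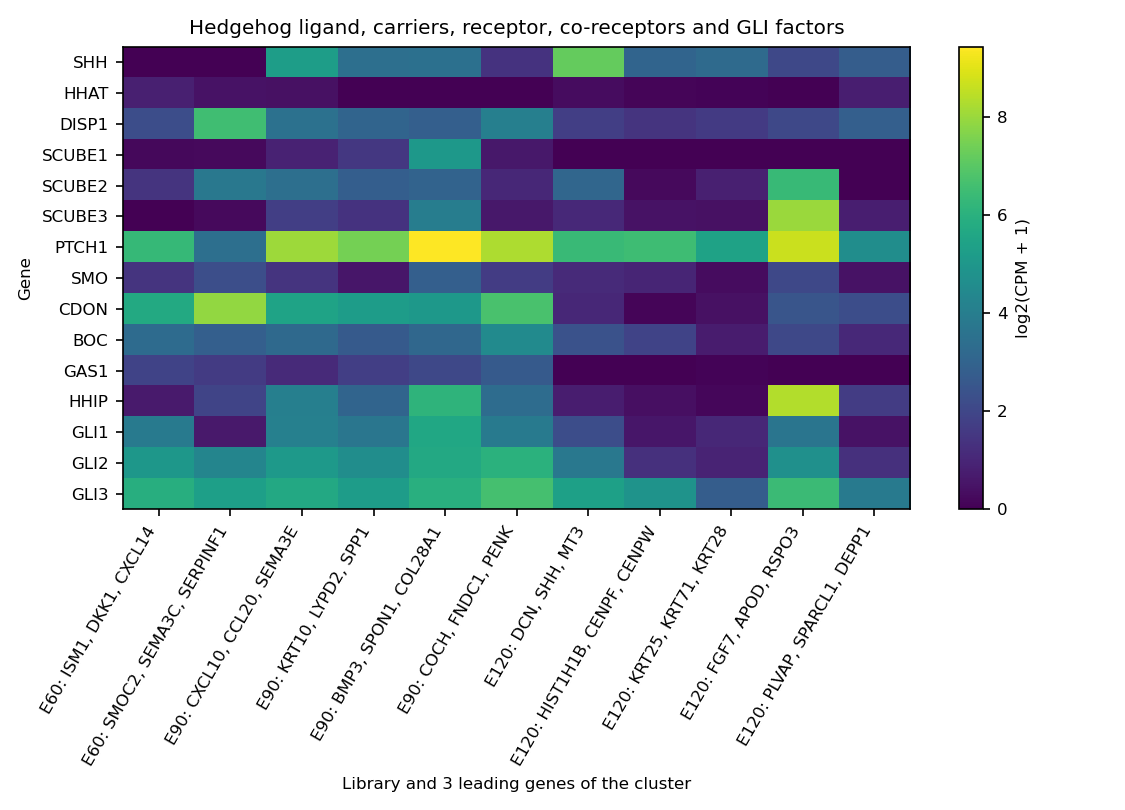
Levels, as log2 of CPM + 1 by colour, of 15 genes of the pathway (rows) in 11 clusters (columns) named by library and 3 leading genes. The 2 E90 dermal-like clusters led by BMP3 and by COCH come from the clustering of E90 alone. PTCH1 is high in the E90 columns and in the E120 cluster led by FGF7, which also has HHIP at 322 CPM and SCUBE3 at 257 CPM.

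In epithelial-like cells, PTCH1 was 227 CPM at E90 and 44.5 CPM at E120, a log2 ratio of -2.33. Endothelial-like cells, given beside it because E90 carried PTCH1 in every cluster, had 145 CPM at E90 and 23.3 CPM at E120. The part of free RNA in this difference was not tested. Of 18 Hedgehog genes, 0 were 2-fold higher at E120 (background 8.49%) and 14 were lower (background 31.5%). With a pseudocount of 10 CPM 8 were lower, and with a minimum of 20 CPM in the higher sum 6 were. The median log2 ratio was -2.15 over the list and -0.47 over all genes. No test was made, as each stage was 1 library. SHH in these named clusters was 25.6 CPM at E90 and 4.86 CPM at E120, a log2 ratio of -2.18, but cluster 4 was outside the class. With unnamed clusters counted in their closest class, SHH was 20.3 CPM at E90 and 31.9 CPM at E120, and the log2 ratio was 0.63. With each cell classed by its own markers it was 0.61. The direction of SHH between E90 and E120 in epithelium thus turned on where cluster 4 was placed.

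Between the layers at E120, SHH was 4.86 CPM in named epithelial-like and 3.03 CPM in dermal-like cells, a log2 ratio of 0.54 that rested on 4 dermal-like UMIs. The sign turned without called doublets, to -0.64, and with the closest class used the log2 ratio was 3.03. At E90, SHH was 25.6 CPM in epithelial-like and 4.97 CPM in dermal-like cells, a ratio of 5.15 (3.11 to 9.15) and a log2 ratio of 2.16.

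Between the layers at E90, 9 of 21 Hedgehog genes were 2-fold higher in dermal-like cells (background 14.5%), among them PTCH1, HHIP, SCUBE1 and BOC, and 5 were lower (background 9.18%), SHH, SCUBE2, CCND1, MYCN and SOX9. With each cell classed by its own markers, 0 were higher and 1 was lower, and with a pseudocount of 10 CPM 2 were higher. At E120, 14 of 17 were higher in dermal-like cells (background 33.2%) and 2 were lower, CCND1 and MYCN (background 13.7%), both linked to proliferation. With a pseudocount of 10 CPM 9 were higher. At E120 the dermal-like level of GLI1 was 11.4 CPM and the epithelial-like level 0.686 CPM, and those of GLI2, the main activator of the pathway, were 25.0 and 0.972 CPM. The epithelial-like class here leaves out the unnamed cluster 4, whose closest class was epithelial. In the cells of cluster 4 without SHH, GLI1 was 2.44 CPM and GLI2 10.6 CPM. In those with 5 or more SHH UMIs they were 9.37 and 18.3 CPM.

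The papilla-like cluster 21 and the SHH-rich cluster 4 of E120 were then set side by side as the cells with most PTCH1 and most SHH of one library. PTCH1 was 4.90-fold higher in the papilla-like cells (4.42 to 5.41) and SHH 46.9-fold lower (18.3 to 172). Of 17 Hedgehog genes, 10 were 2-fold higher in the papilla-like cells (background 28.2%) and 3 were lower (background 15.1%), SHH, CCND1 and MYCN. HHIP was 322 CPM (292 to 354) there and 0.702 CPM in cluster 4, and SCUBE3 was 257 and 1.11 CPM.

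Against all other E120 cells, cluster 4 had 4 of 13 Hedgehog genes 2-fold higher (background 8.78%), SHH, SCUBE2, GLI2 and MYCN, and 3 lower (background 8.52%), HHIP, SOX9 and SOX18. GLI2 was 12.6 CPM (95% interval 10.9 to 14.4) against 1.57 CPM. Both clusters were chosen here for their SHH or PTCH1, so those genes' own ratios and their places in the counts only describe the choice.

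In cluster 4 the cells with 5 or more SHH UMIs carried more PTCH1 and GLI1 transcripts than those with none. Its 1382 cells were grouped by their SHH UMIs into 999 with none, 217 with 1 to 4 and 166 with 5 or more, with median depths of 11975, 11535 and 12499 UMIs. In the same order PTCH1 stood at 74.3 CPM (69.6 to 79.3), at 97.3 CPM (85.8 to 110) and, with 5 or more SHH UMIs, at 121 CPM (107 to 137). The interval of the cells without SHH lay below both others, which overlap. For GLI1, a direct target, the values were 2.44 CPM (1.64 to 3.48), 5.26 CPM (2.88 to 8.83), which overlaps both neighbours, and 9.37 CPM (5.73 to 14.5).

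HHIP did not follow that order. It had 12 UMIs in 2 cells of the group without SHH and 0 in the 383 cells with SHH. SCUBE2 was 9.59 CPM in the cells without SHH and 2.63 and 2.81 CPM in the others, and the co-receptor BOC was 5.12, 1.503 and 1.88 CPM. In the same order GLI2 was 10.6, 16.9 and 18.3 CPM and GLI3 was 42.4, 31.2 and 36.1 CPM. The 3 groups come from 1 library and 1 cluster, so the intervals say nothing of other fetuses.

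**Figure D4:**
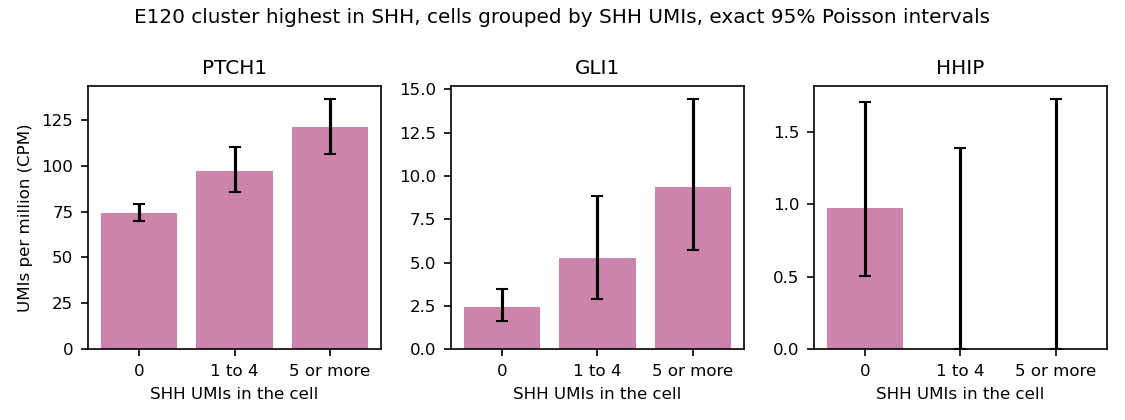
Levels in CPM of PTCH1, GLI1 and HHIP in the cells of E120 cluster 4, grouped by their number of SHH UMIs (0, 1 to 4, or 5 or more). Bars are levels of the summed cells and lines are exact 95% Poisson intervals. PTCH1 reached 121 CPM and GLI1 9.37 CPM in the cells with 5 or more SHH UMIs, against 74.3 and 2.44 CPM in those with none.

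Cells with both transcripts were counted against the number expected if the 2 genes fell independently on the cells of a library. At E120, 366 cells had both, 1.45 times the expected number (1.30 to 1.60), and at equal depth 2.08 times (1.61 to 2.63). Within cluster 4, PTCH1 was in 62.7% of the cells with SHH (57.6 to 67.5) and in 48.5% of the others (45.4 to 51.7). At equal depth these were 25.6% (19.9 to 32.0) and 13.4% (11.5 to 15.5). At E90, 287 cells had both, 1.04 times the expected number (0.929 to 1.17), and 0.989 times at equal depth. In the E90 cluster 5, PTCH1 was 268 CPM in cells without SHH and 248 CPM (211 to 290) in cells with 1 to 4 SHH UMIs. GLI1 was 14.2 CPM (11.2 to 17.8) in the 1123 cells without SHH and 30.4 CPM (18.3 to 47.5) in those with 1 to 4 SHH UMIs, with intervals that do not overlap. The 8 cells with 5 or more had 3 GLI1 UMIs, or 53.1 CPM (10.9 to 155).

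The dermal-like cells of E90 fell into 2 clusters when that library was clustered alone. The one led by BMP3, SPON1, COL28A1, CAPN6 and INHBA, with 244 cells, had PTCH1 at 689 CPM (644 to 736), in 91.4% of its cells. The one led by COCH, FNDC1, PENK and OGN, with 265 cells, had 309 CPM (284 to 336), in 70.6%. Of 23 Hedgehog genes, 10 were 2-fold higher in the first (background 9.42%) and 3 lower (background 5.56%). SHH was among the 10, at 10.2 CPM from 13 UMIs against 1.62 CPM from 3 UMIs, a ratio of 6.27 (1.72 to 34.3). GLI1 was 48.5 CPM (37.2 to 62.2) against 13.5 CPM (8.76 to 19.98), and HHIP 69.7 CPM (56.0 to 85.7) against 9.20 CPM (5.36 to 14.7). SOX18, a transcription factor of the dermal papilla and of vessels, was 2376 CPM against 310.2 CPM. DISP1, CDON and BOC were lower in the first, at 6.26, 31.3 and 7.83 CPM against 15.7, 106 and 21.7 CPM. The clusters were taken as the highest and the lowest in PTCH1, so its own difference and its place among the 10 describe that choice.

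At E60, cluster 10 against the other dermal-like cells showed part of that list. Of 14 Hedgehog genes, 6 were 2-fold higher in cluster 10 (background 4.5%), PTCH1, GLI1, CCND1, MYCN, SOX9 and SOX18, and 1 was lower, DISP1 (background 8.99%). Cluster 10 was taken as the highest in PTCH1 at E60, so the place of PTCH1 in that count describes the choice. GLI1 was 13.2 CPM (10.6 to 16.3) in cluster 10 and 3.52 CPM in the other dermal-like cells, and 0.572 CPM in cluster 11. HHIP was 0.616 CPM in cluster 10 from 4 UMIs and 1.27 CPM in the others. DISP1 was 3.69 CPM in cluster 10 and 22.5 CPM in the others, with 92.7 CPM in cluster 11, where CDON also peaked at 236 CPM. Cluster 10, chosen for its PTCH1, was thus also higher in GLI1, in a library in which no SHH UMI was found. That library held almost no epithelial-like cells, and IHH and DHH were not found under their symbols. A source of ligand at E60 was therefore not measurable here.

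Set against each other, the cells with most PTCH1 at E60 and E120 had GLI1 at 13.2 and 11.6 CPM, a ratio of 0.875 (0.469 to 1.53) for E120 over E60. HHIP in the same clusters was 0.616 and 322 CPM. Of 18 Hedgehog genes, 9 were 2-fold higher at E120 (background 33.7%) and 3 lower (background 7.86%), CDON, BOC and CCND1. PTCH1 was among the 9, and both clusters were taken as the highest in it. Smoothened, the transducer, was at most 4.08 CPM in any of the 32 clusters, and HHAT, the enzyme that attaches palmitate to the ligand, at most 1.38 CPM, too low to compare at this depth.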

How the data were processed

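The deposited table held natural log values, scaled to 10000 per cell by the authors, as the values show. Whole UMI counts were recovered from the deposited values of 100% of entries within 0.01, taking each cell's smallest value as 1 UMI. Cell Ranger 3.0.2 is named in the submitters' processing notes. The genome build, annotation and cell filters are not given in the sources used here. The study's design text states 19705 cells and the table holds 20676.

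All cells were clustered on 2000 variable genes, 30 components and 20 neighbours (leidenalg 0.10.2, igraph 0.11.9, resolution 1). A name needed 3 markers, each in at least 10% of cells, at 2 times the median over clusters and 0.5 times the library level. The scoring was set after the data were seen, and names are rebuilt, not the authors'. Clusters led by markers of another class, or by 3 mitochondrial or haemoglobin genes, stayed unnamed. Doublets were not removed. A Scrublet-type caller marked 408, 12 and 101 cells of E60, E90 and E120, and at E90 it did not work. With 1 library per stage there was no test. Thinning left out no cell. Genes named beside the pathway were the 5 ranking highest by correlation over clusters or by ratio between cells with and without a UMI. The members and lists were chosen with earlier results of these data known. Gene symbols were matched to RefSeq (ARS1.2), with 31 pathway genes found. Some genes of the lists are not reported here and are left out of the counts; clustering and naming kept them.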

Additional observations from a re-analysis of the deposited data

Results flagged for a closer look

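Between E90 and E120, 2 genes of the pathway moved in opposite directions in the layers, and neither difference between layers was tested. SCUBE2 had a log2 ratio of 4.18 in dermal-like cells and -2.73 in epithelial-like cells. HHIP had 3.20 and -3.03. The E120 library held follicles only, so stage and preparation cannot be told apart.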

How the results depend on the processing

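Of 318 values recomputed under alternatives, 238 stayed within their interval or within 1.5 times of a count, 78 moved and 2 that had passed 2-fold reversed. One more value, which had not passed 2-fold, turned its sign within its interval. SHH, epithelial-like over dermal-like at E120, was 0.54 (-0.69 to 2.57) and -0.64 without called doublets. SHH in epithelial-like cells, E120 over E90, reversed to 0.61 with cells classed by their own markers and to 0.63 with unnamed clusters in their closest class, both of which bring cluster 4 into the class. It was otherwise -1.18 at resolution 0.5, -1.73 with libraries clustered alone, -1.92 with cells of at least 1000 genes and at most 10% mitochondrial UMIs, -1.78 with cells weighing the same, -1.26 with a pseudocount of 10 CPM, -1.55 with median-of-ratios scaling and -1.70 after thinning. The closest-class alternative was added after the data were seen.

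The share of E120 SHH UMIs in the highest cluster was 45.6% at resolution 2, 44.0% with E120 alone, 45.0% with the Hedgehog list kept in, 46.1% without called doublets and 46.8% with the cell filter, each of which divided cluster 4. The E90 share was 85.5% at resolution 0.5, 11.3% with E90 alone and 81.4% with the filter. SHH at E90 was 16.2 CPM with the filter. At E120, cells weighing the same gave SHH 36.2 and PTCH1 67.5 CPM, and thinning gave 38.6 and 68.8 CPM and 2.08 times the expected cells with both.

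Own markers, the filter, the pseudocount and scaling gave 3.66, 3.85, 3.60 and 3.10 for dermal-like PTCH1, E90 over E60. Own markers, the pseudocount and scaling gave 3.65, 3.42 and 3.19 for E120 over E60. Own markers and scaling gave -0.0066 and -0.0094 for E120 over E90. In epithelial-like cells, PTCH1 E120 over E90 was -2.27 at resolution 0.5, -2.63 with libraries alone, -2.48 with the filter, -2.20 with cells weighing the same, -2.12 with the pseudocount, -1.64 with scaling and -2.11 after thinning. PTCH1, dermal-like over epithelial-like, at E90 was 0.48 with own markers, 1.32 at resolution 0.5, 0.75 with E90 alone, 0.82 with the filter, 0.75 with scaling and 0.75 with the closest class. At E120 it was 2.85, 3.41, 2.94, 2.60, 2.90 and 2.95 with own markers, resolution 0.5, the pseudocount, scaling, thinning and the closest class. SHH, epithelial-like over dermal-like, was 0.70, 0.97 and 1.25 at E90 with own markers, resolution 0.5 and the pseudocount, and 3.02 and 3.03 at E120 with thinning and the closest class.

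Counts of Hedgehog genes moved too. With the pseudocount and with a minimum of 20 CPM, 7 and 7 were higher in dermal-like E90 over E60, 3 and 5 lower in dermal-like E120 over E90, 8 and 6 lower in epithelial-like E120 over E90, 2 and 5 higher in dermal-like over epithelial-like cells at E90, and 9 and 9 at E120. Own markers gave 6 lower in dermal-like E120 over E90, and 0 higher and 1 lower for the layers at E90. The filter gave 4 higher and 3 lower there, libraries alone 3 lower and scaling 5 higher. Scaling gave 4 lower in dermal-like E90 over E60. Own markers, libraries alone, the filter, cells weighing the same, scaling and the closest class each gave 1 higher in epithelial-like E120 over E90. Except where a cluster or class was redrawn as stated, the cause was not tested. No paired analysis was possible because each stage was 1 library. Few UMIs limit SHH outside the epithelium, with 7 in the E90 endothelial-like and 4 in the E120 dermal-like cluster.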
